A study of Mus musculus with 12 samples.

Results

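Outer hair cell identity genes, as defined here, are 6 genes found by symbol: Slc26a5, Ikzf2, Bcl11b, Strip2, Lmod3 and Lbh. All 6 were listed in both organs, out of 29641 genes listed in either. They were measured in RNA pulled down with an antibody against the HA tag from newborn mouse inner ears of RiboTag mice. In these mice Cre recombinase adds the tag to a ribosomal protein, so the pulldown is meant to enrich RNA of cells in which Cre was active. No library used here lacked Cre or was taken before the pulldown, so RNA carried over from untagged cells was not measured. The mutants were Gfi1Cre/Cre;RiboTagHA/HA and the heterozygotes were Gfi1Cre/+;RiboTagHA/HA, both taken on postnatal day 0 or 1, and each genotype had 3 cochlear and 3 vestibular libraries. Cre sat in the Gfi1 locus of both genotypes, in 2 copies in mutants and 1 in heterozygotes, so the dose of Cre and the loss of unmodified Gfi1 cannot be told apart. No group had 2 unmodified copies of Gfi1, and the RiboTag allele was homozygous throughout. The tag follows any cell in which the Gfi1 locus drove Cre, which need not be a hair cell.

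The cochlea has outer hair cells, which amplify sound by changing length, and inner hair cells, which pass the signal to the auditory nerve; the vestibule has its own hair cell types and no outer hair cells. Slc26a5 encodes prestin, the motor protein in the lateral wall of outer hair cells. Ikzf2 (Helios) and Bcl11b are zinc finger transcription factors, and in mice Ikzf2 is known as a regulator of outer hair cell maturation. Lbh is a transcriptional regulator needed in mice to keep outer hair cells in the adult. Strip2 belongs to the striatin-interacting phosphatase and kinase (STRIPAK) complex, and Lmod3 is a leiomodin, an actin nucleator best known from skeletal muscle thin filaments. GFI1 is a zinc finger transcription repressor needed for hair cell survival and differentiation in mice.

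The genes lie apart on GRCm38 (GENCODE M21): Slc26a5 at chr5:21810655-21865604 on the minus strand, Strip2 at chr6:29917012-29959681 on the plus strand, Bcl11b at chr12:107910403-108003602 on the minus strand, Ikzf2 at chr1:69531214-69687245 on the minus strand, Lmod3 at chr6:97238534-97252759 on the minus strand and Lbh at chr17:72918305-72941947 on the plus strand. All 6 are protein-coding. Exons of Ikzf2 shared 1.24% of their bases with another gene, and those of the other 5 shared 0%. The RefSeq promoter table (GRCm38.p6, 250 bases before to 50 after the start site) held 4 of the 6. Promoters of the genes that were lower in mutant cochlea, Slc26a5, Strip2 and Bcl11b, are shown beside that of Lbh, which was lower in mutant vestibule, 5′ to 3′ on the gene's strand. Capitals mark the core of the GFI1 site (AAATCA on either strand) and E-boxes (CANNTG), the sequence that ATOH1 and related factors bind.
Slc26a5 (chr5:21865555-21865854, minus strand): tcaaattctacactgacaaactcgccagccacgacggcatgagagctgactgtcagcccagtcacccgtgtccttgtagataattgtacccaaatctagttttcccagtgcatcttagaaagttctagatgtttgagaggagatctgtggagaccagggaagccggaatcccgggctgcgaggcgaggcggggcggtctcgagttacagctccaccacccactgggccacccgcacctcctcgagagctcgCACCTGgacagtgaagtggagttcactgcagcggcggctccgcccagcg
Strip2 (chr6:29916763-29917062, plus strand): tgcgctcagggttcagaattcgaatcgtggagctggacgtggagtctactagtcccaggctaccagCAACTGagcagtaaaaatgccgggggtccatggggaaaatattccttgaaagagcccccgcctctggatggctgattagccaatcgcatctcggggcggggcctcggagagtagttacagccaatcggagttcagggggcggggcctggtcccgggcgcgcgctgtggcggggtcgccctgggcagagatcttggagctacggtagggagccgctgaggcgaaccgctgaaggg
Bcl11b (chr12:108003365-108003664, minus strand): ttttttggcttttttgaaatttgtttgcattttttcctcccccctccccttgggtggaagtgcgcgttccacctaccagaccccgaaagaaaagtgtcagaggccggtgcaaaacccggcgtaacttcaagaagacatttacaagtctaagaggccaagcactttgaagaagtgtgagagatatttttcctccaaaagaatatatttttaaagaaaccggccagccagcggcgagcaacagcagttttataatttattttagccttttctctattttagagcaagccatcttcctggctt
Lbh (chr17:72918055-72918354, plus strand): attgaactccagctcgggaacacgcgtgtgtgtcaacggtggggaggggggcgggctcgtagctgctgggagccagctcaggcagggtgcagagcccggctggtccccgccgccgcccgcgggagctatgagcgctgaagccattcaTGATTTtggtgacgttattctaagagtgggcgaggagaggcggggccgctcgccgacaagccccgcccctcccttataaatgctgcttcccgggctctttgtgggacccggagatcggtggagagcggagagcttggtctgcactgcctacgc

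The GFI1 core was present in the Lbh window alone among these 4, once, starting at position -103 from the start site. Of 32851 promoters of the same length, 14.0% held it. Slc26a5 and Strip2 each held 1 E-box, which 72.3% of all promoters held, at positions 2 and -184. None of the 4 held the homeodomain core TAATTA, found in 5.29% of promoters. All motifs were searched on both strands. TATAAA, present in 13.6% of promoters, was found on the gene's strand in the Lbh window, starting at -29, and on the opposite strand only in the Bcl11b window, where it reads TTTATA from -5. The E-box pattern CANNTG reads the same on both strands, no GFI1 core overlapped an E-box here, and a match is a stretch of letters only.

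Cochlear libraries held 7531518 to 9363796 reads and vestibular libraries 18951026 to 29370267. Values are CPM, read counts scaled to the library total, in which 1 read was worth 0.107 to 0.133 CPM for cochlear and 0.0340 to 0.0528 CPM for vestibular libraries. Gfi1 itself had 75.1, 64.3 and 69.1 CPM in mutant cochlea, against 165.3, 106.1 and 126.2 CPM in heterozygous cochlea, and 235.9, 197.5 and 208.4 CPM in mutant vestibule, against 533.6, 449.8 and 483.3 CPM in heterozygous vestibule. It was lower in mutants by limma in both organs (log2 fold change -0.90, SE 0.16, adjusted p = 0.00355, and -1.19, SE 0.13, adjusted p = 0.00234). Which stretch of Gfi1 gave these reads is not shown in the files. All 18 genes shared by hair cells were listed in both organs, summing to 3156 to 3638 CPM in mutant cochlea and 4714 to 5353 CPM in heterozygous cochlea. Mitochondrially encoded RNA was lower in the cochlear replicate 3 libraries (27152 CPM in the mutant, 33207 CPM in the heterozygote) than in the other 4 (58562 to 78544 CPM). In the vestibular replicate 1 libraries 0.729% (mutant) and 0.684% (heterozygote) of reads lay outside the listed genes, against 0.119% to 0.127% in the other 4.

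In the cochlea, Slc26a5, Strip2 and Bcl11b were lower in mutants, while Ikzf2, Lmod3 and Lbh did not pass the test. That is 3 of 6 genes lower and 0 higher, where 2.52% of the 17985 genes tested were lower and 1.9% higher at an adjusted p under 0.05 (limma on log2(CPM + 1)). The median log2 fold change of the 6 genes was -0.96, against 0.05 over all genes tested. The same 3 had mutant libraries wholly below the heterozygous ones, which 7.77% of genes tested showed, and their count was 2 or 3 with any 1 library left out.

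**Figure D1:**
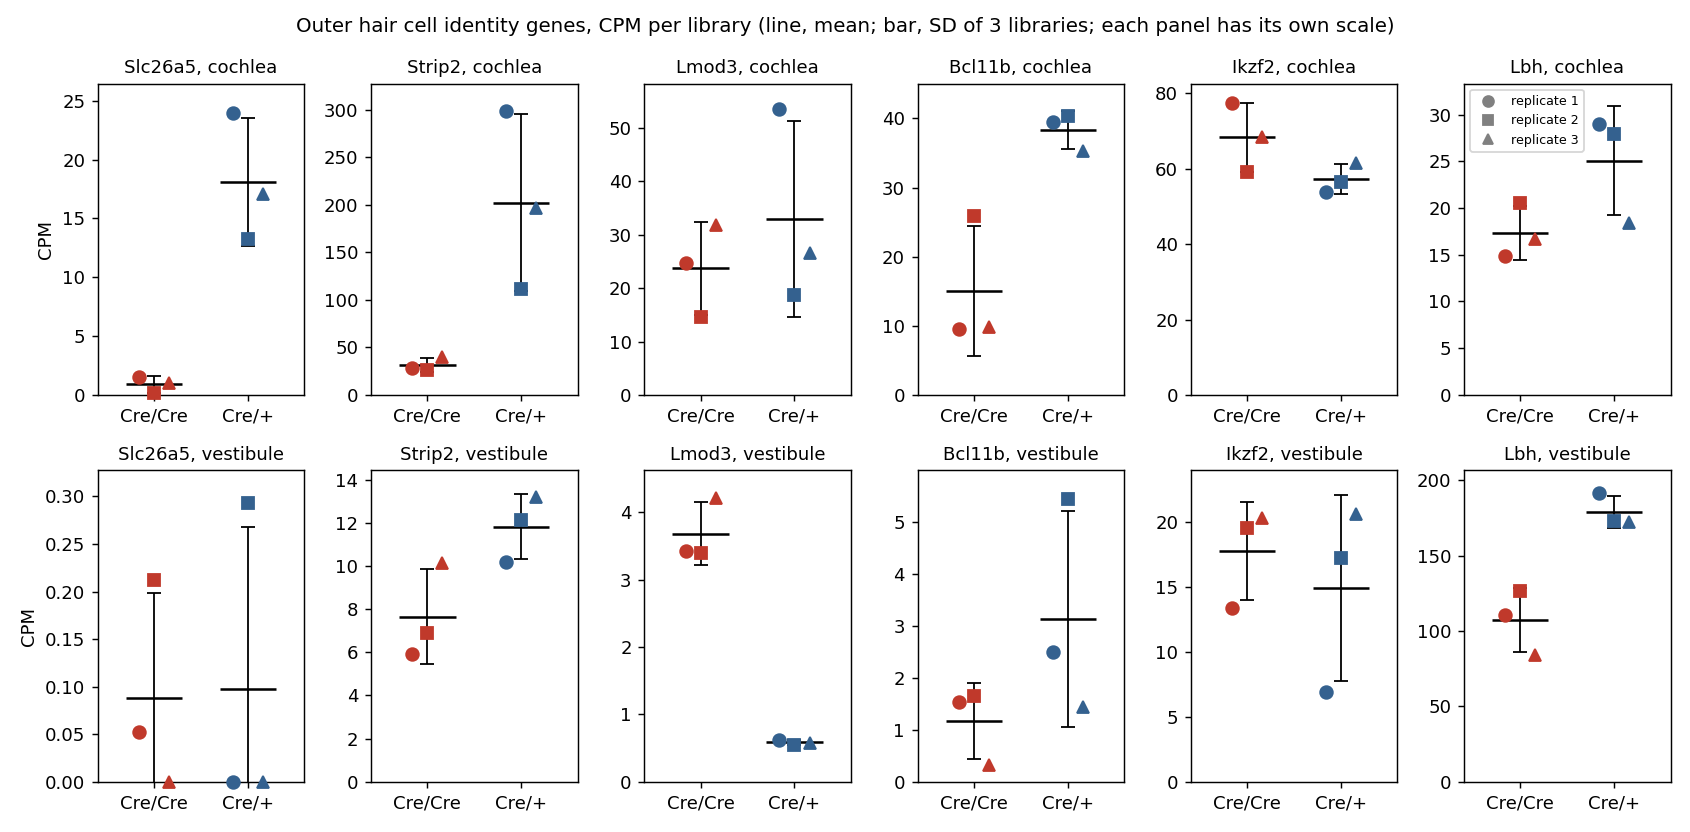
CPM (vertical axis, one scale per panel, from 0) of the 6 outer hair cell identity genes in each library, cochlea above and vestibule below, mutants (Cre/Cre) left and heterozygotes (Cre/+) right; lines are means and bars SD of 3 libraries. Slc26a5, Strip2 and Bcl11b in the cochlea, and Strip2, Lmod3 and Lbh in the vestibule, have groups that do not overlap. Mutants were wholly lower in 7.77% of cochlear and 11.6% of vestibular genes tested, and wholly higher in 10.7% of vestibular genes.

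Slc26a5 had 1.50, 0.129 and 1.04 CPM in mutant cochlea, from 12, 1 and 9 reads, against 24.0, 13.3 and 17.1 CPM in heterozygous cochlea, from 189, 100 and 160 reads. Every mutant library was far below every heterozygous one. The means were 0.890 ± 0.698 CPM in mutants and 18.1 ± 5.44 CPM in heterozygotes (SD, n = 3 each), the heterozygous mean being 20.4 times the mutant mean. On log2(CPM + 1), a scale that understates the change of a gene this low, the log2 fold change was -3.38 (SE 0.32, adjusted p = 2.84e-05, limma), ranking 4 from the lowest of the 17985 genes tested. On recovered reads the edgeR quasi-likelihood test gave -4.38 (adjusted p = 0.000153). Replicate 2 of the mutants held a single read, which is under the floor of 3 reads (0.387 CPM in that library).

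Strip2 had 28.6, 26.2 and 40.3 CPM in mutant cochlea, against 298.4, 111.8 and 196.8 CPM in heterozygous cochlea. The mutant libraries lay close together and the heterozygous ones were spread, with replicate 1 highest and replicate 2 lowest. The log2 fold change was -2.55 (SE 0.27, adjusted p = 8.08e-05, limma). The means, 31.7 ± 7.54 CPM in mutants and 202.3 ± 93.4 CPM in heterozygotes (SD, n = 3 each), differed by 6.38 times.

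Bcl11b had 9.50, 25.9 and 9.84 CPM in mutant cochlea, against 39.5, 40.4 and 35.2 CPM in heterozygous cochlea. Here the mutants were the spread group, replicate 2 standing above the other 2 mutant libraries but below all heterozygous ones. Its log2 fold change was -1.44 (SE 0.29, adjusted p = 0.0103, limma). The call was lost without heterozygous replicate 1 (adjusted p = 0.0554), heterozygous replicate 2 (0.0506) or mutant replicate 1 (0.0559), while it stood with the edgeR test on recovered reads (adjusted p = 0.0348).

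Ikzf2 had 77.4, 59.1 and 68.6 CPM in mutant cochlea, against 53.7, 56.4 and 61.5 CPM in heterozygous cochlea. The groups overlapped, with mutant replicate 2 below heterozygous replicate 3. The log2 fold change was 0.25 (95% interval -0.06 to 0.55, adjusted p = 0.571, limma), so a fall of the size seen for Bcl11b lies outside the interval.

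Lmod3 had 24.7, 14.6 and 31.8 CPM in mutant cochlea, against 53.6, 18.7 and 26.6 CPM in heterozygous cochlea. Heterozygous replicate 1 stood above all other libraries, and the remaining 5 mixed across genotypes. This gave a log2 fold change of -0.39 (95% interval -1.11 to 0.32, adjusted p = 0.786, limma), and 0.02 without heterozygous replicate 1.

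Lbh had 14.9, 20.5 and 16.7 CPM in mutant cochlea, against 29.0, 27.9 and 18.4 CPM in heterozygous cochlea. Heterozygous replicate 3 fell within the mutant range, and its other 2 libraries were higher. A log2 fold change of -0.49 (95% interval -0.94 to -0.04) came with an unadjusted p of 0.0337 and an adjusted p of 0.332 (limma), so it did not pass the test.

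Per kilobase of exon, so that genes can be compared within the cochlea, the order of levels in mutants was Lmod3 (10.7 ± 3.92 CPM per kb), Ikzf2 (5.88 ± 0.786), Lbh (5.40 ± 0.898), Strip2 (3.81 ± 0.906), Bcl11b (1.86 ± 1.16) and Slc26a5 (0.290 ± 0.227). Each neighbour overlapped the next except Slc26a5, whose highest library (0.488 CPM per kb) was below the lowest for Bcl11b (1.17). In heterozygotes the order was Strip2 (24.3 ± 11.2 CPM per kb), Lmod3 (14.9 ± 8.26), Lbh (7.81 ± 1.81), Slc26a5 (5.90 ± 1.77), Ikzf2 (4.93 ± 0.340) and Bcl11b (4.73 ± 0.338), and every pair of neighbours overlapped (SD, n = 3 in both groups). Strip2 led the order in heterozygotes and stood below Lbh in mutants, and Slc26a5 was last in mutants.

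Genes of other hair cell lists were also lower in mutant cochlea. Of the 18 genes shared by hair cells, 9 passed the test, all lower (16 with the replicate number as a block, where 4.31% of all genes were lower), with a median log2 fold change of -0.72. Examples are the tip link cadherin Cdh23 (-1.77, SE 0.19, adjusted p = 8.56e-05) and the unconventional myosin gene Myo15 (-1.58, SE 0.22, adjusted p = 0.000563). Of 7 inner hair cell genes tested, 3 were lower, among them Slc17a8, the vesicular glutamate transporter (-0.99, SE 0.16, adjusted p = 0.00177), and Otof, the synaptic calcium sensor (-0.89, SE 0.15, adjusted p = 0.00349). In tissue pulldowns, fewer cells of a type and less RNA per cell cannot be told apart. With each library rescaled to its summed level of the 18 shared genes, the log2 fold changes were -2.98 for Slc26a5, -1.99 for Strip2 and -0.90 for Bcl11b (adjusted p = 0.0119 for Bcl11b), while the median over all genes moved to 0.56 and Ikzf2 reached 0.80 (adjusted p = 0.00234).

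The other outer hair cell genes split. Of 8, 6 were tested, and 2 were lower and 3 higher in mutant cochlea, where 2.52% of all genes tested were lower. The count of higher genes and the median of 0.51 both include Ppp1r17, whose entry into the test was tied to being high in mutants (below). Without it the middle log2 fold change was that of Sri (-0.04). The subunits of the efferent acetylcholine receptor, Chrna9 and Chrna10, were lower, with log2 fold changes of -2.03 (SE 0.18, adjusted p = 1.96e-05) and -1.63 (SE 0.17, adjusted p = 7.75e-05), though Chrna10 shares 39.0% of its exon bases with a neighbouring gene. Insm1, a zinc finger factor that in mice keeps nascent outer hair cells from taking on inner hair cell expression, was higher, at 37.1 ± 18.1 CPM in mutants and 16.1 ± 2.91 CPM in heterozygotes (SD, n = 3 each; log2 fold change 1.06, SE 0.27, adjusted p = 0.0428). Ppp1r17, a phosphatase inhibitor, averaged 5.06 ± 1.99 CPM in mutants, from 24, 54 and 45 reads, and 0.173 ± 0.150 CPM in heterozygotes, from 2, 2 and 0 reads. It is among the 3 higher genes but passed the filter through its mutant libraries alone, so it could enter the test only by being high in mutants, and its p is not given. Neurod6, a neuronal bHLH factor, was higher as well (1.46, SE 0.31, adjusted p = 0.0122). Sri, encoding the calcium-binding protein sorcin, had a log2 fold change of -0.04 (adjusted p = 0.976), and Ocm and Car7 did not reach the filter. Neurod6 lost its call without heterozygous replicate 1 (adjusted p = 0.0753), and Insm1 without any 1 library other than mutant replicate 3 (adjusted p = 0.0734 to 0.172).

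Markers of neurons were higher in mutant cochlea, as were Insm1, Ppp1r17 and Neurod6 but not the other genes tested in that group. Of 10 neuron markers, 7 were higher in mutant cochlea and none lower (8 higher with the block, where 4.21% of all genes were), their sum being 2273 to 2373 CPM in mutants and 1261 to 1396 CPM in heterozygotes; their part in the rise of Insm1, Ppp1r17 and Neurod6 was not tested. Supporting cell markers summed to 1051 to 1316 CPM in mutants and 1135 to 1253 CPM in heterozygotes, with 1 of 12 lower (S100a1) and none higher. Macrophage markers summed to 1702 to 1870 CPM in mutants and 1369 to 1734 CPM in heterozygotes, with 1 of 10 higher (Lyz2). Mesenchyme markers gave 0 of 9 calls by limma, edgeR and DESeq2, with 0 at an unadjusted p under 0.05 by limma.

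**Figure D2:**
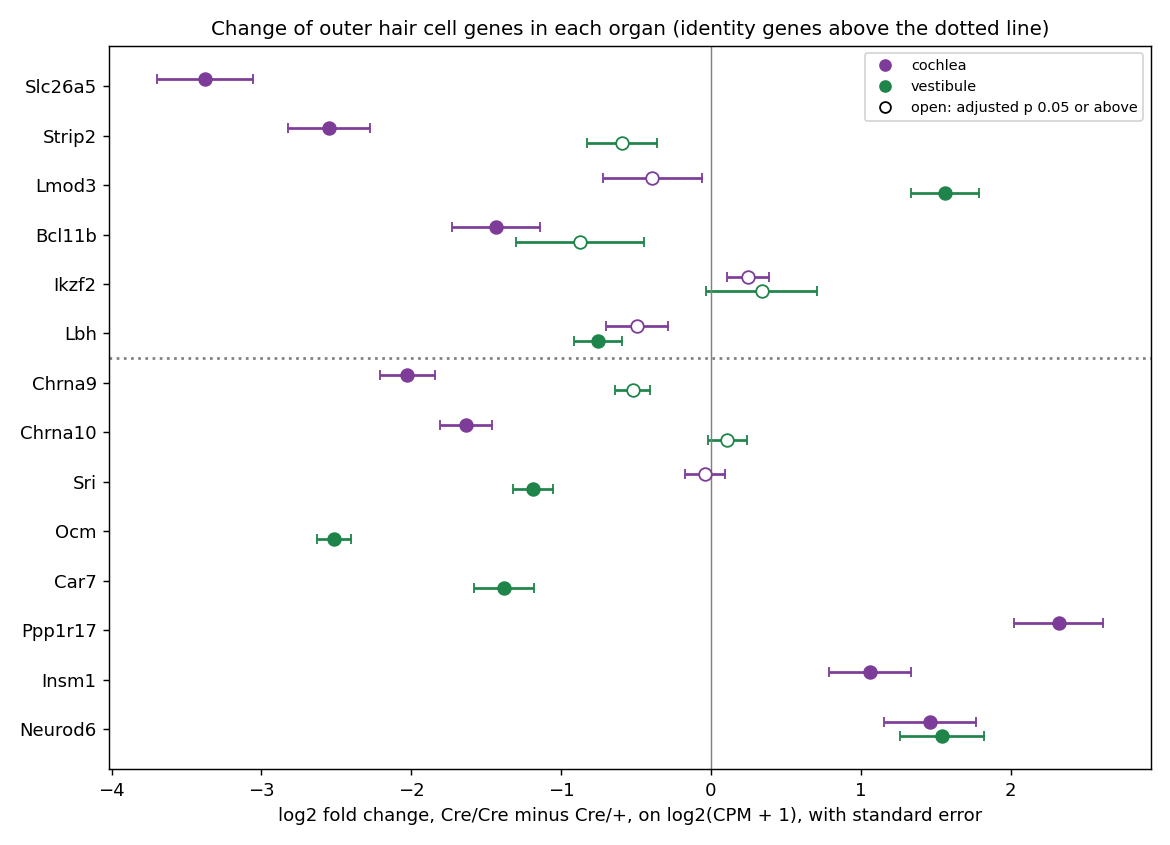
Log2 fold change of mutants over heterozygotes on log2(CPM + 1) (horizontal axis, bars are standard errors) for the 6 identity genes and 8 other outer hair cell genes, in the cochlea (purple) and the vestibule (green); filled points passed an adjusted p under 0.05, and a gene with no point in an organ did not pass the filter. Slc26a5 and Strip2 stand farthest left in the cochlea, and Lmod3 lies right of 0 in the vestibule alone.

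In the vestibule, Lmod3 was higher and Lbh lower in mutants, Strip2, Bcl11b and Ikzf2 did not pass the test, and Slc26a5 was too low to test. Lmod3 passed the filter of 1 CPM in 3 libraries through its mutant libraries alone, so its entry into the test was tied to being high there. Of the 5 genes that passed the filter 1 was lower, where 1.09% of 15595 genes tested were (limma). The 1 higher gene, Lmod3, is not set against the 2.41% of genes that were higher, because the filter selected it by that direction. The median log2 fold change over all genes was -0.06. When replicate numbers entered as a block, 3 were lower, where 12.8% of genes were, and Lmod3 was again the 1 higher.

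Lmod3 had 3.43, 3.40 and 4.22 CPM in mutant vestibule, from 65, 80 and 103 reads, against 0.625, 0.545 and 0.579 CPM in heterozygous vestibule, from 14, 13 and 17 reads. Each group was tight and the groups lay far apart, the mutant mean being 6.32 times the heterozygous mean (3.68 ± 0.465 CPM in mutants and 0.583 ± 0.0400 CPM in heterozygotes; SD, n = 3 each). The log2 fold change was 1.56 (SE 0.23, limma), with an adjusted p of 0.0247 when no filter on low values was applied. On recovered reads edgeR gave 2.69. Lmod3 could enter the filtered tests only by being high in mutants, so their p is not given as support. Even with the filter the limma call was lost without mutant replicate 3 (adjusted p = 0.0513). Groups with all mutants higher were found in 10.7% of genes tested.

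Markers of skeletal muscle, where Lmod3 is best known, were not higher beside it: 2 of 11 passed the filter, and 0 of these passed the test by limma, edgeR or DESeq2, with 0 at an unadjusted p under 0.05 by limma. Their sum over 11 genes was 4.63 to 9.34 CPM in mutant vestibule and 10.3 to 14.9 CPM in heterozygous vestibule. Ckm, muscle creatine kinase, stayed at or under 0.264 CPM in mutants and 0.536 CPM in heterozygotes. In the cochlea Ckm was at 0 in 5 of 6 libraries, but Neb, the thin filament protein nebulin, had 39.9, 18.8 and 38.3 CPM in mutants against 28.1, 31.9 and 32.8 CPM in heterozygotes (log2 fold change -0.01, adjusted p = 0.998).

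Lbh had 110.6, 126.6 and 84.3 CPM in mutant vestibule, against 191.4, 173.3 and 172.6 CPM in heterozygous vestibule. All mutant libraries were below all heterozygous ones, as in 11.6% of genes tested. The means were 107.2 ± 21.3 CPM in mutants and 179.1 ± 10.7 CPM in heterozygotes (SD, n = 3 each). Its log2 fold change was -0.75 (SE 0.16, adjusted p = 0.0457, limma), a call close to the threshold that was lost with any 1 library left out (adjusted p = 0.0593 to 0.162) and by edgeR (0.0741), and that stood with the replicate block (8.86e-05) and by DESeq2 (0.00587). Mesenchyme markers were lower beside it: 9 of 9 had negative log2 fold changes with a median of -0.75, and 2 passed the test (Col1a1 and Col3a1, fibrillar collagens; 8 with the block). Col3a1 kept its call with any 1 library left out, and Col1a1 lost it without any 1 library other than heterozygous replicate 1 (highest adjusted p = 0.122). The marker sum was 996 to 1334 CPM in mutants and 1840 to 2354 CPM in heterozygotes. Their part in the Lbh difference was not tested.

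Strip2 had 5.91, 6.88 and 10.1 CPM in mutant vestibule, against 10.2, 12.1 and 13.2 CPM in heterozygous vestibule. The groups did not overlap, with mutants lower as in 11.6% of genes tested, though mutant replicate 3 nearly reached heterozygous replicate 1. Its log2 fold change was -0.59 (95% interval -1.13 to -0.05, adjusted p = 0.267, limma; 0.0239 with the replicate block). Bcl11b had 1.53, 1.66 and 0.328 CPM in mutant vestibule, against 2.50, 5.45 and 1.43 CPM in heterozygous vestibule. In each pair of the same replicate number the mutant was lower, and the groups overlapped through heterozygous replicate 3 (log2 fold change -0.87, 95% interval -1.85 to 0.10, adjusted p = 0.372, limma; 0.0204 with the replicate block).

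Ikzf2 had 13.4, 19.6 and 20.4 CPM in mutant vestibule, against 6.92, 17.2 and 20.7 CPM in heterozygous vestibule. Both replicate 1 libraries were the lowest of their genotype, and the groups overlapped. The log2 fold change was 0.34 (95% interval -0.51 to 1.19, adjusted p = 0.738, limma) and -0.10 without heterozygous replicate 1. Slc26a5 was listed with 1, 5 and 0 reads in mutant vestibule, against 0, 7 and 0 reads in heterozygous vestibule, so no library reached 1 CPM, and no fold is given.

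Per kilobase of exon, Lbh was the highest of the 6 genes in mutant vestibule (33.4 ± 6.65 CPM per kb) and in heterozygous vestibule (55.7 ± 3.32 CPM per kb), above every library of the other 5. Lmod3 came next in mutants (1.66 ± 0.210), overlapping Ikzf2 (1.53 ± 0.328), and stood above Slc26a5 alone in heterozygotes (0.263 ± 0.0181), within the range of Bcl11b (0.386 ± 0.257; SD, n = 3 throughout).

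The other genes known from outer hair cells also behaved in their own ways in the vestibule. Of 6 tested, 3 were lower (Ocm, Car7 and Sri) and 1 higher (Neurod6), with a median of -0.86. Ocm, the calcium buffer oncomodulin, averaged 34.5 ± 1.31 CPM in mutants and 202.3 ± 8.99 CPM in heterozygotes (SD, n = 3 each; log2 fold change -2.52, SE 0.11, adjusted p = 3.94e-05). Car7, a carbonic anhydrase, had a log2 fold change of -1.38 (SE 0.20, adjusted p = 0.00870), Sri one of -1.19 (SE 0.13, adjusted p = 0.00305) and Neurod6 one of 1.54 (SE 0.28, adjusted p = 0.0229). Car7 lost its call without mutant replicate 2 (adjusted p = 0.0506), and Neurod6 without any 1 library other than heterozygous replicate 2 (highest adjusted p = 0.109). Chrna9 missed the threshold at -0.52 (SE 0.12, adjusted p = 0.0537; 0.000917 with the block), and Chrna10 had a value of 0.11 (SE 0.13). Of the genes shared by hair cells, 1 of 18 was higher (Pvalb, parvalbumin, 1.56, SE 0.13, adjusted p = 0.000732) and none lower, while with the block 8 were higher and 1 lower, and without both replicate 1 libraries 5 were higher. Their sum was 7241 to 7944 CPM in mutants and 5821 to 6163 CPM in heterozygotes. The median log2 fold change of these 18 genes was 0.20, with 12 positive and 6 negative. With the block 10.5% of all vestibular genes tested were higher and 12.8% lower. Of 8 inner hair cell genes, 2 were higher (Brip1 and Slc7a14) and none lower (4 and 2 with the block). Both calls were lost without heterozygous replicate 2, mutant replicate 2 or mutant replicate 3 (adjusted p = 0.0726 to 0.0933), that of Slc7a14 also without heterozygous replicate 3 (0.0570). Neuron markers summed to 2373 to 2465 CPM in mutants and 1416 to 1648 CPM in heterozygotes, with 4 of 9 higher (6 with the block, and 1 lower). Supporting cell markers gave 0 of 12 calls by limma and edgeR and 2 by DESeq2 (1 higher and 1 lower), with 4 at an unadjusted p under 0.05 by limma and 2 higher and 3 lower with the block. Macrophage markers summed to 4492 to 5452 CPM in mutants and 4724 to 7103 CPM in heterozygotes, with 0 of 10 called by limma, edgeR or DESeq2, 3 at an unadjusted p under 0.05 by limma and 4 lower with the block.

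**Figure D3:**
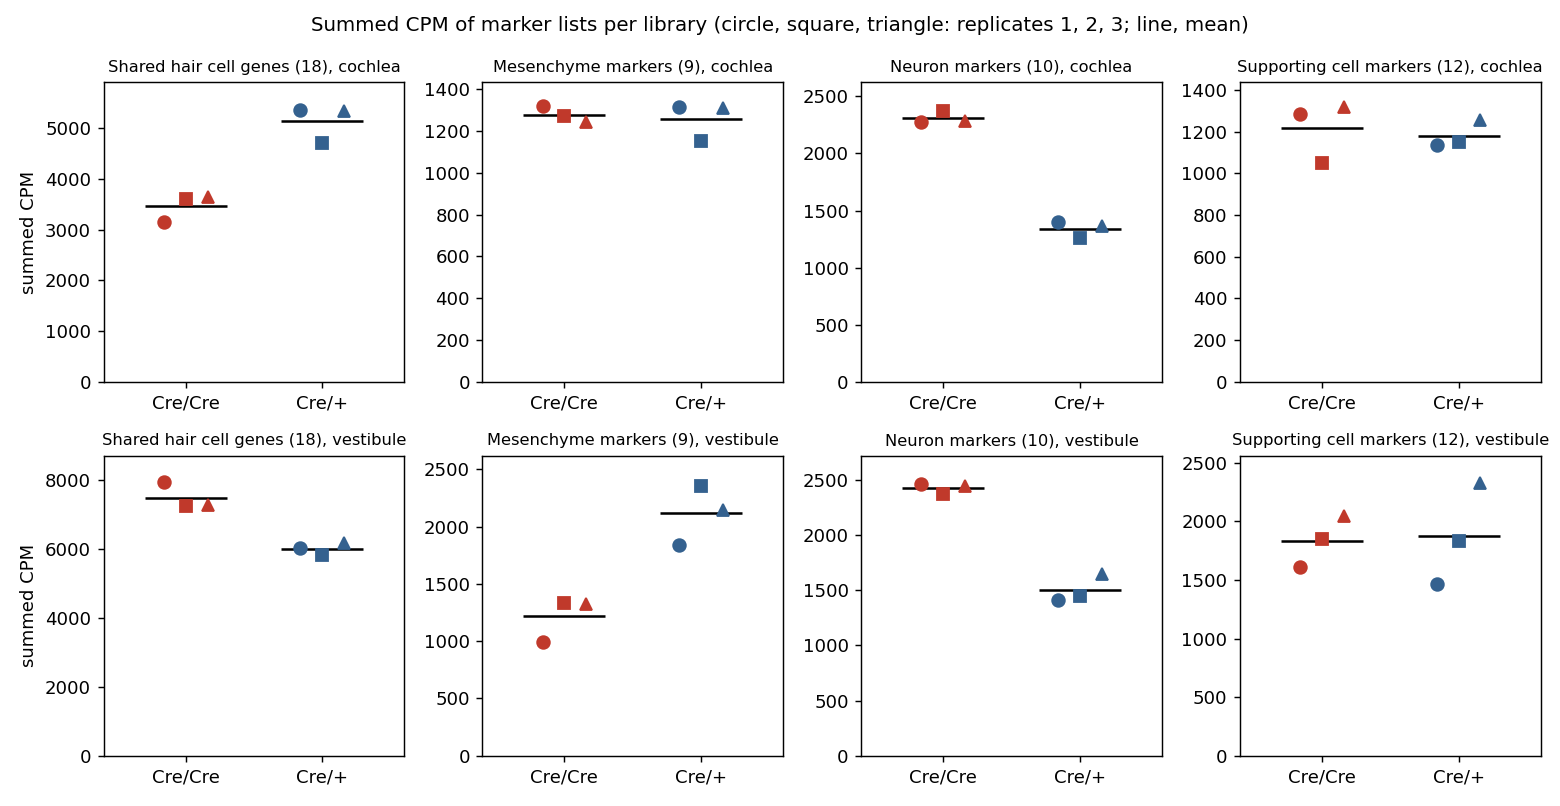
Summed CPM (vertical axis, from 0) of 4 marker lists in each library, cochlea above and vestibule below, mutants (Cre/Cre) left and heterozygotes (Cre/+) right. The hair cell sum is lower in mutant cochlea and higher in mutant vestibule, the mesenchyme sum is lower in mutant vestibule, and the neuron sum is higher in mutants of both organs.

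Whether the genotype effect differed between organs was tested directly, as the cochlear change minus the vestibular change, because library kits differed with organ and levels were not compared across them. Of the 5 genes tested, Strip2 was more negative in the cochlea and none was more positive. Over all 14674 genes, 2.43% were more negative and 0.709% more positive. Strip2 gave -1.96 (SE 0.41, adjusted p = 0.0154, limma), against a median of 0.11 over all genes. Lmod3 gave -1.95 (SE 0.47) and was called with the filter, but that call is not counted here because of how it entered the test (below). For Strip2 the fall in mutants was larger in the cochlea, and without cochlear mutant replicate 2 the adjusted p was 0.0501. Lmod3 was higher in mutant vestibule and did not pass the test in the cochlea. It passed the vestibular filter through its mutant libraries alone, so its entry into this test was tied to being high there. Its limma call between organs was lost with no filter (adjusted p = 0.0679) and in 9 of the 12 fits that left out 1 library (highest adjusted p = 0.0913). On recovered reads edgeR gave -3.23. Bcl11b (-0.56, 95% interval -1.77 to 0.65), Lbh (0.26, -0.31 to 0.84) and Ikzf2 (-0.09, -0.96 to 0.78) did not pass the test (adjusted p = 0.741, 0.747 and 0.952). Slc26a5 was too low in the vestibule for this test. Among the shared hair cell genes, 8 of 18 were more negative in the cochlea and none more positive (15 with the replicate block, where 6.43% of all genes were, and 4 without both cochlear replicate 3 libraries); their part in the difference of Strip2 was not tested.

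Few complex partners and relatives of the 6 genes passed the test. Of the 17 other STRIPAK genes tested, Cttnbp2nl was higher in mutant cochlea (0.49, SE 0.12, adjusted p = 0.0259) and none was lower. That call was lost without any 1 library other than heterozygous replicate 3 (adjusted p = 0.0549 to 0.108) and by edgeR, which called 1 gene lower, as did the block. In the vestibule limma called 0 STRIPAK genes, with 2 at an unadjusted p under 0.05, and edgeR and DESeq2 called 0. With the block 2 were lower there, where 12.8% of all genes were. Of the other leiomodins and tropomodulins, Lmod1, the smooth muscle leiomodin, was lower in the cochlea, with 34.7, 34.8 and 33.8 CPM in mutants against 62.4, 63.7 and 81.5 CPM in heterozygotes (log2 fold change -0.97, SE 0.14, adjusted p = 0.000998). In the vestibule Lmod1 averaged 137.9 ± 14.9 CPM in mutants and 87.8 ± 11.4 CPM in heterozygotes (SD, n = 3 each), groups that do not overlap, with a log2 fold change of 0.65 (SE 0.14, adjusted p = 0.0504, just above the threshold; 0.000559 with the block). The difference between organs was -1.62 (SE 0.20, adjusted p = 0.000434), the same sign as for Lmod3.

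The SLC26 anion transporter family gave no call in either organ by limma, edgeR or DESeq2 (of 9 genes tested in cochlear and 8 in vestibular libraries, 0 were at an unadjusted p under 0.05 by limma). The NuRD chromatin complex, which Ikaros family and BCL11 factors bind, gave 0 of 13 calls by limma in either organ, with 1 at an unadjusted p under 0.05 in each. With the block, which called 4.31% of all cochlear and 12.8% of all vestibular genes lower, the complex had 1 lower in the cochlea and 2 in the vestibule. Its Hdac1, a histone deacetylase gene, had values of -0.77 (adjusted p = 0.153; 0.000296 with the block) in the cochlea and -0.86 (adjusted p = 0.289; 0.000971 with the block) in the vestibule; DESeq2 called 1 in the cochlea and 0 in the vestibule, and edgeR 0 in both. The 5 other Ikaros and Bcl11 factors gave 0 calls by limma, with 0 at an unadjusted p under 0.05 in the cochlea and 1 in the vestibule, where edgeR called 0 and DESeq2 1. With the block 1 was higher in the vestibule and 1 more negative between organs, where 10.5% and 6.43% of all genes were. T cell markers, listed because Bcl11b is well known from those cells, summed to 26.5 to 42.3 CPM in mutant cochlea and 21.2 to 34.3 CPM in heterozygous cochlea, with 0 of 3 tested called by limma, edgeR or DESeq2 in either organ and 0 at an unadjusted p under 0.05 by limma. Their defining members Cd3d and Cd3g were each at 0 in 5 of 6 cochlear libraries, and Cd4 had most of the sum, at 17.4 to 23.7 CPM in mutants and 14.9 to 20.5 CPM in heterozygotes.

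**Figure D4:**
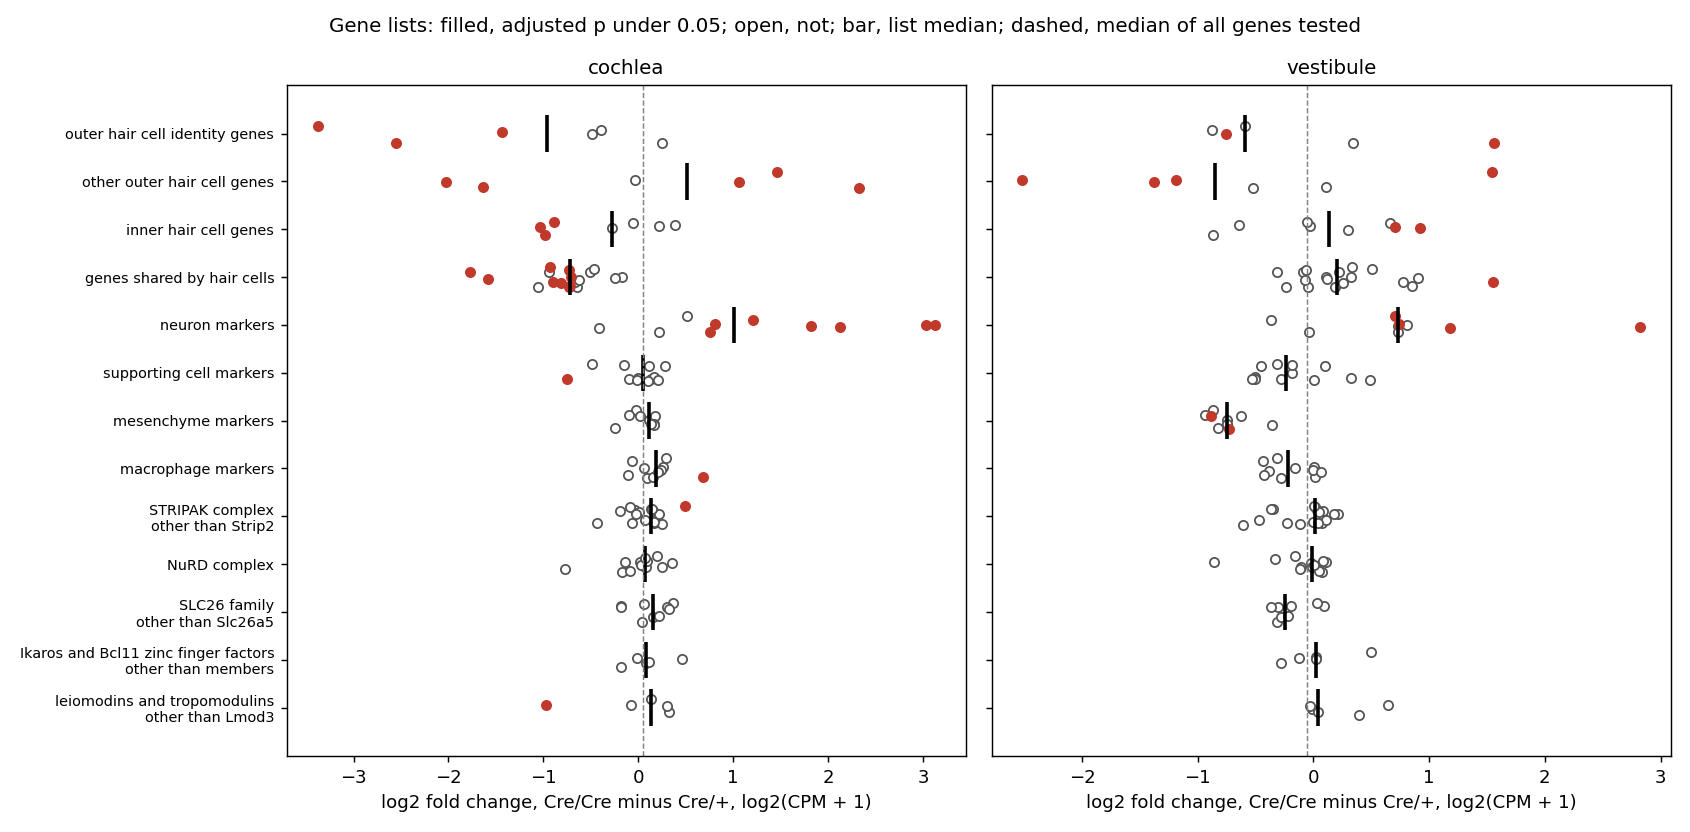
Log2 fold change of mutants over heterozygotes on log2(CPM + 1) (horizontal axis) for each tested gene of 13 lists, in the cochlea (left) and the vestibule (right); filled points passed an adjusted p under 0.05, bars are list medians and the dashed line is the median of all genes tested. The identity genes spread widely in both organs, while the medians of the STRIPAK, NuRD and zinc finger lists lie near the dashed line. Hdac1 of the NuRD list lies well left of it in both organs. The SLC26 median is 0.16 in the cochlea and -0.25 in the vestibule.

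Across the 12 libraries, centred on each organ's mean, Slc26a5 and Strip2 had the highest correlation within the set (Pearson's r = 0.93), followed by Bcl11b and Lbh (0.78), while Ikzf2 ran from -0.51 (with Lbh) to 0.23 (with Lmod3). These values describe libraries that share genotype and replicate, and carry no test. In the vestibule Slc26a5 had at most 0.294 CPM, so its correlations rest almost wholly on the cochlear libraries and their split by genotype. Among 13417 genes compared, the nearest to Slc26a5 were Ofcc1 (r = 0.984) and Drc7 (0.982). Ofcc1 averaged 0.688 CPM in mutants and 11.8 CPM in heterozygotes in the cochlea, and 90.8 and 90.5 CPM in vestibular mutants and heterozygotes, so it shared the cochlear fall without being absent from the vestibule. The nearest to Strip2 were Cyld (0.990), a deubiquitinase gene, and Tmc2 (0.976), a subunit gene of the mechanotransduction channel in young hair cells, which averaged 11.8 CPM in mutant cochlea and 50.8 CPM in heterozygous cochlea. Lmod3 was nearest to Frmd4b (0.924) and Sccpdh (0.911), Lbh to Osbp2 (0.917) and Zmynd12 (0.916), and Ikzf2 to Zmym2 (0.977) and Zfp141 (0.966). Bcl11b came nearest to Rps10-ps2 (0.933), a pseudogene whose reads may belong to its parent, and to Bmp7 (0.910), a secreted growth factor gene.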

How the data were processed

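RNA bound to HA-tagged ribosomes was sequenced from 12 libraries, 3 per genotype and organ; the labels call them biological triplicates and do not speak of pooled animals. Cochlear libraries were made with a NuGEN Ovation Ultralow kit and vestibular ones with a NEBNext Ultra Directional kit, per the labels' protocols, so organ and kit cannot be told apart. The authors deposited CPM, 1 table per library, per the file headers; TopHat and GRCm38 come from the submitters' processing notes, and the sources used here give no counting tool, annotation or strand setting. All values (100%) were whole multiples of 1 read to within 1e-06, so reads could be recovered; these fix the counting precision (7531518 to 9363796 reads per cochlear and 18951026 to 29370267 per vestibular library), and the floor of 3 reads covers counting error only.

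Genes with at least 1 CPM in 3 of an organ's 6 libraries were tested with limma 3.58.1 (trend, R 4.3.3) on log2(CPM + 1), pseudocount 1, no replicate block, Benjamini-Hochberg adjusted over all genes tested, threshold 0.05; organs were compared by the interaction of genotype and organ. Intervals are at 95%, from the quantile of the moderated t distribution that gave the p. Same-numbered mutants and heterozygotes deviated together over genes (r = 0.226, 0.226 and 0.420 in the cochlea, 0.766, 0.508 and 0.599 in the vestibule). The replicate numbers from the sample titles were therefore taken as pairs in a further fit, the block, given beside the results where it changes a call. The main calls, SEs and intervals do not use this pairing. No 2 libraries agreed within sampling noise (chi-square per gene 9.15 or more within groups). On recovered reads edgeR 4.0.16 called 813 genes in the cochlea, 524 in the vestibule and 516 between organs, and DESeq2 1.42.0 called 955, 1234 and 815.

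The 6 genes, the lists and the tests were chosen with earlier results of these data known. Named beside them are Gfi1, all other outer hair cell genes on the list (1 that was on it is not reported here and is left out of its counts and medians), up to 4 genes per further list by smallest p, and the 2 genes most correlated with each. Symbols were matched to GENCODE M21 by identifier (28300 of 28342 cochlear and 24703 of 24726 vestibular), promoters to RefSeq (GRCm38.p6). Figures were drawn with matplotlib 3.10.9.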

Additional observations from a re-analysis of the deposited data

Results flagged for a closer look

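Strip2 stood out because its genotype effect differed between organs in a direct test. Lmod3 was flagged by the same test, but its call depended on the filter on low values. For Strip2 the difference, cochlea minus vestibule, was -1.96 on log2(CPM + 1) (adjusted p = 0.0154, limma), with log2 fold changes of -2.55 in the cochlea and -0.59 in the vestibule. Its adjusted p was 0.0501 without cochlear mutant replicate 2. For Lmod3 the difference was -1.95, with -0.39 in the cochlea and 1.56 in the vestibule. Lmod3 passed the vestibular filter through its mutant libraries alone, so its p with the filter is not given as support. That limma call was lost with no filter (adjusted p = 0.0679) and in 9 of the 12 fits that left out 1 library (highest adjusted p = 0.0913). Each organ had its own library kit, and whether the kit changed the size of these differences cannot be told apart from the organ.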

How the results depend on the processing

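Called genes numbered 794 in the cochlea, 546 in the vestibule and 461 between organs. With the replicate block they numbered 1532, 3634 and 1955; the block added Strip2 (-0.59) and Bcl11b (-0.87) in the vestibule and, of the other genes with values above, Chrna9 and Lmod1 in the vestibule and Hdac1 in both organs; it changed no other call of the 6 genes. DESeq2 moved the vestibular count to 1234 and that between organs to 815, the absence of a filter the vestibular count to 358, omission of both vestibular replicate 1 libraries to 863, and omission of both cochlear replicate 3 libraries the count between organs to 280. Leaving out 1 library gave 226 to 522 in the vestibule and 302 to 453 between organs. Rescaling to shared hair cell genes gave 10130 (97.7% higher, against 42.9% as deposited), 1463 (17.5% against 68.9%) and 10555 (98.5% against 22.6%), with medians over all genes of 0.56, -0.36 and 0.93; the shift of the median is by construction. Under it Ikzf2 rose in the cochlea (0.80), Lmod3 (0.15) and Lbh (0.048) turned positive there, and between organs Lbh passed the test (1.12) while Ikzf2 (0.76) and Bcl11b (0.18) changed sign. It also turned Sri (0.52), Bcl11a (0.55), Fgfr1op2 (0.54), Tmod1 (0.48), Sox10 (0.45), Col3a1 (0.54), Adgre1 (0.45) and Frmd4b (0.47) positive in the cochlea, and Ikzf5 (0.65), S100a1 (0.021), Zmym2 (0.81), Rps10-ps2 (0.63) and Sccpdh (0.60) between organs.

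Lbh in the vestibule lost its call without a filter (-0.75, adjusted p = 0.0933), with median-of-ratios rescaling (-0.71, 0.0577), with edgeR (-0.70, 0.0741) and without both replicate 1 libraries (-0.74, 0.0585), and gave -0.88 to -0.59 with 1 library left out. The Lmod3 difference between organs lost its call at a pseudocount of 4 (-1.10), without a filter (-1.95, adjusted p = 0.0679) and without both cochlear replicate 3 (-2.27) or vestibular replicate 1 (-2.01) libraries, and gave -2.28 to -1.54 with 1 library left out. With 1 library left out Bcl11b in the cochlea gave -1.88 to -1.20, Lmod3 -0.72 to 0.018 in the cochlea, in the vestibule 1.48 to 1.60, Ikzf2 -0.10 to 0.62 in the vestibule and -0.38 to 0.35 between organs, and Strip2 -2.33 to -1.62 between organs. Bcl11b between organs was 0.010 by edgeR and 0.0064 by DESeq2, and Ikzf2 there was 0.17 without both vestibular replicate 1 libraries. The causes were not tested. Slc26a5 and Strip2 in the cochlea kept direction and call in every setting run. A filter of 5 CPM left Lmod3 and Bcl11b untested in the vestibule and so between organs. Depth limits Slc26a5 in the vestibule, where at most 7 reads were found.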
